A study of Mus musculus with 12 samples.

Results

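The array design carried 16181 probes named only by a genomic interval and a strand, in the form chromosome, start, end and F (forward) or R (reverse), in place of a gene symbol. These intergenic noncoding RNA region probes were kept if they lay on an autosome, which left 15604, and if some group among the 4 had all 3 of its arrays well above background for that probe. The rule kept 4563 probes in 2097 region strands (an interval on 1 strand), of 55681 distinct probes on the array, and 4528 of them had a value on every array and entered the tests. That is 29.2% of the autosomal region probes, against 54.9% of the 39500 probes of other kinds under the same background rule. No fold change entered the choice, but a probe above background in 1 genotype at 1 time alone qualifies.

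Long intergenic noncoding RNAs are transcripts from between protein-coding genes that hold no long open reading frame. Some act on chromatin or on genes at their own locus, some are the long precursors from which microRNAs are cut, and for most no function is known. Many are restricted to 1 cell type or state, and T cells switch several on or off when the T cell receptor is engaged. A probe in such an interval can also read an extended end, an unspliced form or an unannotated exon of a neighbouring gene's transcript, which is why the nearest gene on the array is given with each region.

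RNA came from sorted splenic regulatory T cells (Treg) of female C57BL/6 mice and was hybridised, labelled with Cy3, to 12 single-colour arrays. The 4 groups of 3 arrays were CD83 wild type (WT) without activation (0 h), WT activated for 3 h through CD3 and CD28 by antibodies, CD83cKO (written KO; Cd83 encodes a surface protein of activated lymphocytes and dendritic cells) at 0 h and KO at 3 h. WT mice were 9 weeks old, and KO mice 10 weeks, apart from replicate 3 at each time, which came from mice of 21 weeks. The labels used here name no Cre driver for the knockout. The comparisons ask how region transcription changes on activation in each genotype and whether it differs between genotypes.

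Cd83 itself read 2.36, 2.17 and 2.38 in WT at 0 h and 4.21, 3.69 and 3.65 in WT at 3 h, against 0.75, 0.29 and 0.23 in KO at 0 h and 1.06, 1.07 and 1.92 in KO at 3 h, on the log2 scale used throughout, where 0 is the 75th percentile of the probes above background on all 12 arrays. Slide 1 held the 6 KO arrays, slide 2 the WT 0 h arrays and slide 3 the WT 3 h arrays, for which reason slide cannot be told apart from genotype or from WT activation, while KO activation was measured within 1 slide. The 12 arrays came from 6 mice, no label but the age of 21 weeks ties a 0 h array to a 3 h array, and p-values treat arrays as independent. The mean over 7 plasma cell markers was 3.36 and 3.78 on the 21-week arrays and between -3.12 and -0.97 on the other arrays. The mean over 9 T cell markers was 1.61 and 0.57 there and 2.72 to 3.59 elsewhere, and the mean over 8 Treg markers was -3.06 and -2.70 there and -0.90 to -0.24 elsewhere. The Treg gene Foxp3 was not well above background on any WT array and was above it on all 6 KO arrays; it has 1 probe on the array. The share of autosomal region probes above background ran from 23.7% to 39.2% per array.

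The sequences of the regions on which the results turn are shown first, since the names give only positions. Each line is the 60-base probe as the array files give it, 5′ to 3′, for selected regions that rose or fell on activation or differed between genotypes, and for both strands of intervals in which the strands behaved differently. Capitals mark AATAAA, the canonical polyadenylation hexamer.

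chr17:95158347-95160942_F, higher on activation: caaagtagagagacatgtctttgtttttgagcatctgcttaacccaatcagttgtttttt
chr2:60038543-60046318_R, higher on activation: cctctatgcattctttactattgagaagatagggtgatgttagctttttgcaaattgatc
chr16:84708695-84708806_F, higher on activation: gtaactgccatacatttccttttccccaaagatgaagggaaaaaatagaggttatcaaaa
chr4:149445201-149445902_F, higher on activation: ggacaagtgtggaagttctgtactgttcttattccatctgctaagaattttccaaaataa
chr13:48620882-48643532_R, higher on activation: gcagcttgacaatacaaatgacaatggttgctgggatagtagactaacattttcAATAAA
chr13:48620882-48643532_F, the other strand: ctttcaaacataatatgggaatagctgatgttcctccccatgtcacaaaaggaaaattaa
chr15:66682293-66722977_F, higher on activation: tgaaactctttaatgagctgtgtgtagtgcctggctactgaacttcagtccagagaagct
chr15:66682293-66722977_R, the other strand: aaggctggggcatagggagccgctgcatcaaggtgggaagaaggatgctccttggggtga
chr19:4991356-4993113_R, lower on activation: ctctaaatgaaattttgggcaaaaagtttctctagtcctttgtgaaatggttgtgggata
chr10:62267317-62269871_R, lower on activation: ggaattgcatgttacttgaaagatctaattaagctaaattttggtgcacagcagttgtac
chr2:84344350-84370075_R, lower on activation and higher in KO: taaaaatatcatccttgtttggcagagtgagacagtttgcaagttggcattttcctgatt
chr1:175660642-175671878_R, higher in KO: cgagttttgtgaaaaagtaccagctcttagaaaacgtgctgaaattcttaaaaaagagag
chr6:36790208-36792056_R, higher in KO: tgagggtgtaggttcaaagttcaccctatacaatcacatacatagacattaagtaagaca
chr6:67155508-67216941_F, lower in KO: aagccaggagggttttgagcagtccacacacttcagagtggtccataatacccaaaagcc

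AATAAA, searched as these 6 letters on the strand of the probe, stood in 4.13% of the fitted region probes and in 3.83% of the autosomal region probes that were not members. It stood in 13.3% of the probes of RefSeq genes. Among region probes within 1 kb of a gene probe on the same strand the share was 7.08%, and among those over 50 kb from any gene probe it was 3.48%. The reverse complement TTTATT stood in 2.80% of the fitted region probes. The median GC content was 45.0% in the fitted region probes and 43.3% in the other tested probes.

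The regions were long relative to a probe, with a median of 11626 bases and a range from 104 to 533972. The label was checked against the array's own gene probes, on the mm9 build. Of 2091 fitted region strands, 1605 (76.8%) had no named gene probe inside the interval, 176 had one on the opposite strand only, and 310 had one on the same strand, so for the last group "intergenic" describes the design's label and not the present naming. Only 2 fitted region probes shared a stretch of sequence with a microRNA hairpin of RefSeq, 1 with let-7c and 1 with Mir8110, and neither was called on activation. In 31 cases the 60 bases were those of another tested probe, and the median gap between such identical pairs in the WT activation difference was 0.12 (log2), the largest 0.76.

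Membership differed by group. Of the 4563 probes, 3843 were above background on all 3 arrays in WT at 0 h, 3900 in WT at 3 h, 3435 in KO at 0 h and 2689 in KO at 3 h. The 2490 probes above background on all 12 arrays (54.6%) have a measured level everywhere, while 842 passed through 1 group only, 264 of them in WT at 0 h, 378 in WT at 3 h, 192 in KO at 0 h and 8 in KO at 3 h. Just outside the rule lay 930 probes above background on 2 but not 3 arrays of a group, and 7270 autosomal region probes were above background on 0 of 12 arrays. A probe that passed only where it was bright had to differ between groups, so counts are given for all fitted probes and for the 2490. Of the 61 calls named by size below, 31 are of probes that entered through 1 group only, and for these the adjusted p describes a difference that the choice of probes favours. Where a probe was not well above background on any array of the dimmer group, the change is also given as a lower bound on the fold, the brighter mean against the array's lowest signal above background or the probe's own signal, whichever was higher.

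On activation, WT cells changed more region probes downward than upward. By limma's moderated test with Benjamini-Hochberg adjustment over all 26259 tested probes, 992 of 4528 region probes passed the threshold of 0.05 (21.9%), against 29.3% of all tested probes. Of these, 355 were higher at 3 h (7.84%, against 13.7% of all tested probes) and 637 lower (14.1%, against 15.6%). The median difference over the region probes was -0.16 (log2), and -0.10 over all tested probes. Among the 2490 probes above background on all arrays 530 passed, (21.3%, against 30.2% of all such probes), 212 of them higher (8.51%, against 14.9%) and 318 lower (12.8%, against 15.3%). In 987 of the 992 the arrays of the 2 times did not overlap. Choice by adjusted p with 3 arrays a group favours this, so it is no further evidence, and it was not counted over the other called probes. Markers of monocytes and macrophages went down too: 10 of 12 were called lower in WT (median -2.43) and 9 of 12 in KO (median -2.23), with 0 higher, and their part in the region differences was not tested.

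In KO cells 517 region probes passed (11.4%, against 16.3% of all tested probes), 245 higher (5.41%, against 7.43%) and 272 lower (6.01%, against 8.87%). The median difference was 0.07, and -0.02 over all tested probes. Among the 2490 it was 285 (11.4%, against 16.3% of all such probes), with 164 higher (6.59%, against 8.16%) and 121 lower (4.86%, against 8.19%). Without the 2 arrays from 21-week mice 1438 of 4528 region probes passed in KO and 1951 in WT, against 44.3% and 54.6% of all tested probes. With the age of 21 weeks as a term it was 1180 and 1730, against 37.3% and 49.1%. The counts thus rose over the whole array, and the cause was not tested. The split in KO leaned on the scaling: with no shift between arrays 47 were higher and 302 lower, and with normexp background correction 361 were higher and 118 lower.

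**Figure D1:**
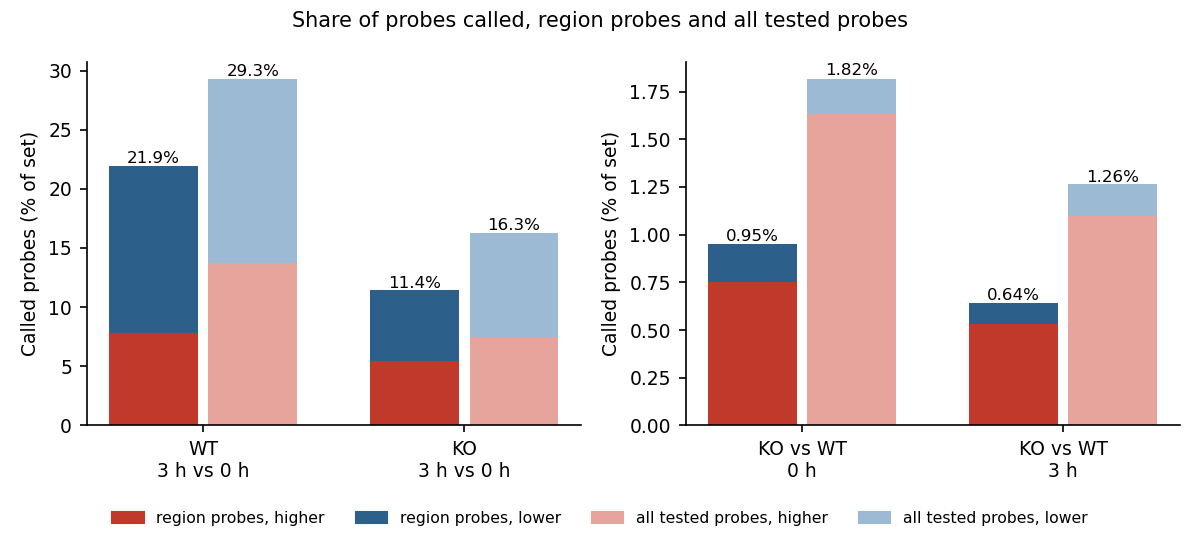
Percent of probes that passed limma's adjusted threshold of 0.05 in each of 4 comparisons (left panel activation; right panel, on another scale, genotype), with dark bars for the 4528 region probes and pale bars for all 26259 tested probes, split into higher (red) and lower (blue). The dark bar is shorter than the pale one in each comparison, 21.9% against 29.3% in WT activation and 0.95% against 1.82% between genotypes at 0 h.

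No region probe was called in opposite directions in the 2 genotypes. In both, 181 were higher (4.0%, against 6.44% of all tested probes) and 240 lower (5.3%, against 7.66%). A further 571 were called in WT only (12.6%, against 15.2%) and 96 in KO only (2.12%, against 2.19%). A call in 1 genotype and not in the other does not show that they differ: for the difference between the activation effects 0 of 4528 region probes passed (limma, 0 of 26259 tested probes, 0%), with 200 region probes at an unadjusted p under 0.05. The sign in KO was that in WT for 962 of the 992 probes called in WT and for 3416 of all 4528. Across region probes, which are not independent replicates and share the 12 libraries, the WT and KO activation differences had a Pearson r of 0.79, 0.84 over the 2490 and 0.86 over the other tested probes.

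**Figure D2:**
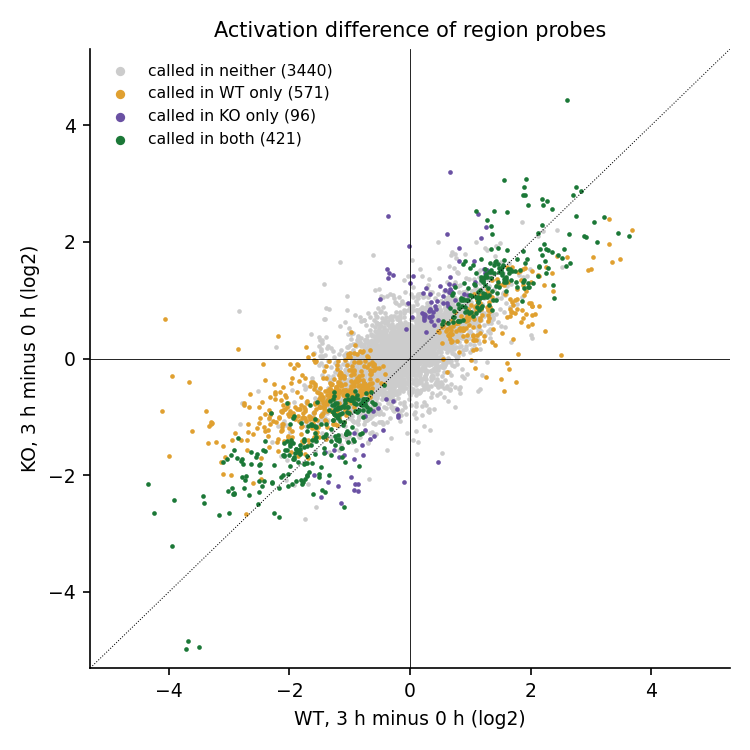
Activation difference (3 h minus 0 h, log2) of each of 4528 region probes in WT (x axis) and KO (y axis), coloured by where limma called it; the dotted line marks equal differences. The probes called in both genotypes (green), 181 higher and 240 lower, all have the same sign on both axes, and the 3 lowest points, -4.97 to -4.84 in KO, are probes of the region beside Gm13710.

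In most regions the probes changed with the same sign. Among 1098 region strands with at least 2 fitted probes, every probe had the same sign of the WT difference in 73.0% and of the KO difference in 65.6%. Where few or no probes were called, the share was 61.0% (KO against WT at 0 h), 61.1% (at 3 h) and 55.8% (difference of activation effects). In WT 205 region strands had a higher probe and 363 a lower one, 86 and 150 had them on at least 2 probes, and 5 had probes called both ways. In KO the numbers were 168, 171, 45, 60 and 3. The regions below are those with the largest called changes, with the other probes of their interval beside them.

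An interval on chromosome 16 rose on all its forward probes. RefSeq places Mir155hg, the precursor transcript of miR-155, which T cells induce on activation, between the array genes A730009L09Rik and Mrpl39, with other noncoding genes and pseudogenes (Gm32073 and 4930529L06Rik among them). Mir155hg had no tested probe of its own, and overlap of the interval with it could not be read across builds. On the array 3 forward regions, 2 of them inside the third, end 7047 to 10227 bases from the Mrpl39 probe. All 7 forward probes of chr16:84702353-84710928 rose in both genotypes, by 1.39 to 2.19 in WT and 2.52 to 3.07 in KO. The brightest, chr16:84708695-84708806_F, read -1.04, -1.67 and -1.49 in WT at 0 h, 0.59, 0.48 and 0.36 in WT at 3 h, -1.71, -2.22 and -3.50 in KO at 0 h and 0.84, 0.22 and -0.11 in KO at 3 h. Every 3 h array lay above every 0 h array. Its change was 1.87 ± 0.41 (SE) in WT (limma adjusted p = 0.00832) and 2.80 ± 0.41 in KO (adjusted p = 0.00268). Without the 21-week arrays the KO change was 2.50. Mrpl39, a mitochondrial ribosomal protein gene on the other strand, changed by 0.05 in WT and 0.31 in KO, and neither passed. The 3 reverse probes of the same interval changed by 1.26 to 1.35 in WT and 2.26 to 2.37 in KO, of which 2 passed in WT and 3 in KO.

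A second rise lay between the array genes H6pd and Gpr157, the gap in which RefSeq places Mir34a and the noncoding gene Gm13067. All 3 probes of chr4:149445201-149445902_F were called higher in both genotypes, by 2.21 to 2.84 in WT and 2.63 to 2.86 in KO. The leading probe read -8.18, -7.41 and -9.28 in WT at 0 h, where no array was well above background, and -6.20, -5.21 and -4.94 in WT at 3 h. It read -6.48, -6.32 and -5.91 in KO at 0 h and -3.36, -3.64 and -3.11 in KO at 3 h. The groups did not overlap at either step, and the WT rise was at least 3.67-fold (limma adjusted p = 0.00187). The same probe was 2.05 higher in KO at 0 h (adjusted p = 0.0558) and 2.08 higher at 3 h (adjusted p = 0.068), neither of which passed, though 1 of the 3 probes was called higher in KO at 3 h. Gpr157, an orphan G protein-coupled receptor gene 33829 bases away on the same strand, changed by 1.15 in WT (adjusted p = 0.11).

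A further interval, chr13:48620882-48643532, lies between the array genes A830005F24Rik and Ptpdc1, where RefSeq places the let-7a-1, let-7d and let-7f-1 hairpins. Of its 5 reverse probes 4 rose in both genotypes, by up to 1.54 in WT and 1.67 in KO, and of its 6 forward probes 1 rose in both. The leading reverse probe read -1.79, -1.75 and -2.01 in WT at 0 h and -0.41, -0.40 and -0.47 in WT at 3 h, a rise of 1.42 ± 0.20 (limma adjusted p = 0.00106). In KO it read -2.20, -2.07 and -2.42 at 0 h and -0.45 and -0.22 on the first and second 3 h arrays, the third (21 weeks) being the lowest, a rise of 1.67 ± 0.20 (adjusted p = 0.00121). This probe was above background on all 12 arrays. Whether the probes of these 3 intervals read the precursors of the microRNAs was not tested. The mature 5p strands of these hairpins, from RefSeq (GRCm38.p6), are given with the seed, bases 2 to 8, in capitals, and the let-7 members share theirs.

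mmu-miR-155-5p: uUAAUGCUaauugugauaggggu
mmu-miR-34a-5p: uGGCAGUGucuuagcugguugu
mmu-let-7a-5p: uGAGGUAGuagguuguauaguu
mmu-let-7d-5p: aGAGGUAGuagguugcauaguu
mmu-let-7f-5p: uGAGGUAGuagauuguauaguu

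The largest fitted rise in WT, chr4:15230638-15231187_F, is a region of 1 probe, 19206 bases from Tmem64 on the same strand. It read -6.52, -8.21 and -7.87 at 0 h, with no array well above background, and -4.25, -3.67 and -3.65 at 3 h, a rise of at least 9.31-fold (limma adjusted p = 0.023). That call was lost in 6 of 22 alternatives, among them leaving out any 1 of the WT 3 h arrays. The probe entered through WT at 3 h alone, so the choice of probes favours this difference. In KO it read -7.19, -6.73 and -8.74 at 0 h and -3.79, -4.14 and -8.16 at 3 h, and the low value at 3 h is the 21-week array.

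A locus around 2700099C18Rik on chromosome 17 rose as a block. All 6 forward probes of the overlapping regions in chr17:95149413-95180650 were called higher in WT, by 1.92 to 3.63, and 3 of 6 in KO. The leading probe of chr17:95158347-95160942_F read -8.08, -8.68 and -7.97 in WT at 0 h and -4.86, -4.46 and -4.52 at 3 h, at least 6.55-fold (limma adjusted p = 0.000636). It read -7.40, -7.74 and -7.10 in KO at 0 h and -4.36, -5.06 and -6.55 at 3 h, at least 3.66-fold (adjusted p = 0.0148). The 3 h arrays lay above the 0 h arrays in both genotypes. The 2700099C18Rik probe, 1950 bases away on the same strand, rose by 2.26 in WT (adjusted p = 0.016).

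The region chr2:60038543-60046318_R holds a probe of Baz2b, a bromodomain protein gene, on its own strand, and all 7 of its probes were called higher in WT, by 1.31 to 3.45, with 4 of 7 called in KO. A probe above background on all 12 arrays, chosen after its values were seen, read -5.70, -5.93 and -6.14 in WT at 0 h and -3.14, -2.90 and -2.88 at 3 h, a rise of 2.95 ± 0.52 (limma adjusted p = 0.003). In KO it read -5.23, -5.64 and -5.28 at 0 h and -3.13, -3.02 and -5.43 at 3 h. The KO change of 1.52 ± 0.52 did not pass (limma adjusted p = 0.0741). The 2 arrays from 10-week mice rose to the WT level, and the 21-week array stayed at the 0 h level.

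Other rises in the rule were spread over the genome. A probe 28 bases from Zdbf2, an imprinted zinc finger gene, in chr1:63319842-63349796_F, rose in WT by at least 2.39-fold (limma adjusted p = 0.00711), and Zdbf2 itself rose by 3.27. A probe in chr11:6421951-6429173_R, 2321 bases from Snhg15, read -7.12, -7.63 and -7.56 in WT at 0 h and -3.93, -4.25 and -4.23 at 3 h. Snhg15, a host gene of small nucleolar RNA, rose by 2.30 in WT and 1.70 in KO. One of 3 probes in chr3:88009045-88036270_F, which holds a probe of the noncoding gene Gm3764, rose by 3.29 ± 0.73 in WT, and 2 of 3 probes in chr10:120336296-120354471_R, 23533 bases from Lemd3, were called higher there, by up to 3.21. The 9 probes of overlapping reverse regions in chr15:68161768-68194740 were all called higher in WT, by 1.51 to 3.11, and 8 of 9 in KO; they were picked out after their values were seen.

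The largest rise in KO was the forward strand of chr15:66682293-66722977, in an interval next to Tg and Sla, the gene of an adaptor protein that dampens receptor signalling in T cells, which RefSeq places between the flanking array genes. One probe read -7.57, -7.41 and -6.94 in WT at 0 h, -4.94, -4.59 and -4.58 in WT at 3 h, -8.34, -8.03 and -9.03 in KO at 0 h and -4.47, -4.54 and -3.13 in KO at 3 h. The rise was 2.60 ± 0.39 in WT (limma adjusted p = 0.00124) and at least 8.99-fold in KO (adjusted p = 0.000254). Of 3 fitted forward probes 2 rose in both genotypes, and the third changed by -0.81 and -0.89. The reverse probe changed by -0.97 in WT and -0.45 in KO, and neither passed. The Tg probe, 28177 bases away on the forward strand, rose by 3.28 in WT and 2.57 in KO.

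Also in KO, a probe of chr6:23105525-23118900_F rose by 2.93 ± 0.35 (limma adjusted p = 0.00105) and by 2.75 ± 0.35 in WT, 850525 bases from the nearest tested gene. A probe of chr1:33965074-34060850_F rose by 2.81 ± 0.41 in KO (adjusted p = 0.0025) and at least 2.63-fold in WT. It read -6.16, -5.87 and -5.52 in KO at 0 h and -3.12, -3.45 and -2.55 in KO at 3 h, against -8.11, -7.01 and -8.23 in WT at 0 h and -6.57, -5.31 and -5.77 in WT at 3 h. The arrays of the genotypes did not overlap at either time. This region is taken up again under the genotype comparison.

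**Figure D3:**
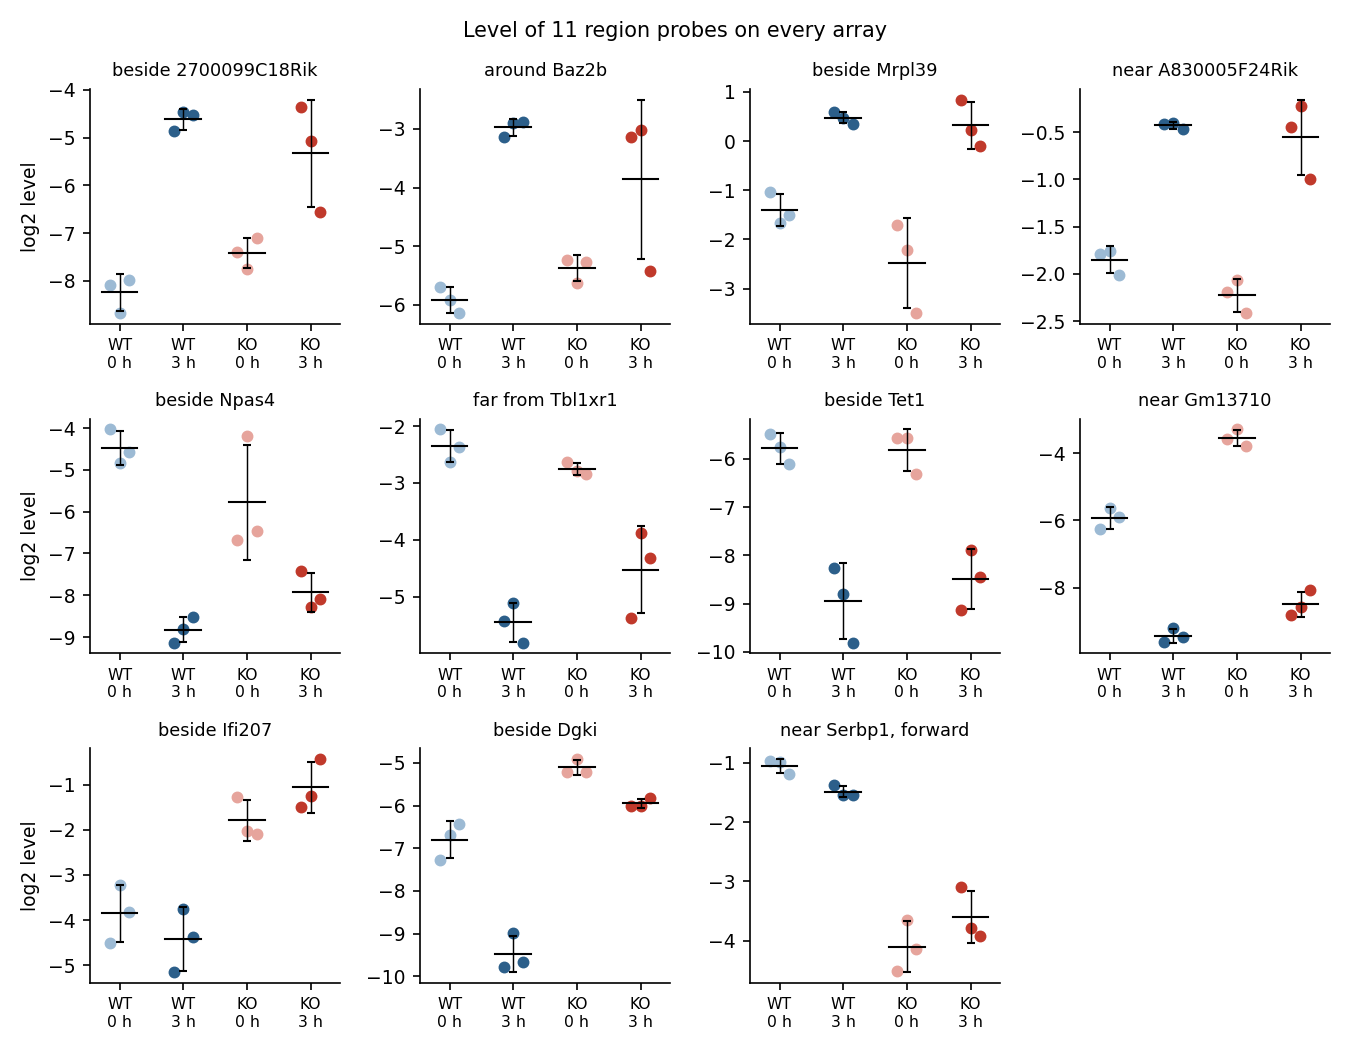
Log2 level of 11 region probes on each of 3 arrays a group, with the mean (line) and SD (bar). The level 0 is the 75th percentile of probes above background on all 12 arrays. Each panel has its own y axis, and its title names an array gene to place the region. The top row rose on activation in WT, to between -0.47 and -0.40 near A830005F24Rik, and the middle row fell. In the bottom row KO and WT arrays do not overlap at either time in any of the 3 panels.

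Falls were led by a region beside Npas4, a transcription factor gene that depolarisation and calcium induce in neurons. The leading probe of chr19:4991356-4993113_R, 7040 bases from the Npas4 probe on the same strand, read -4.02, -4.83 and -4.57 in WT at 0 h and -9.13, -8.81 and -8.52 at 3 h, where no array was well above background. The fall was at least 8.25-fold (limma adjusted p = 0.000693). In KO it read -6.68, -4.20 and -6.45 at 0 h and -7.42, -8.29 and -8.10 at 3 h, a fall of at least 1.71-fold (adjusted p = 0.03). The Npas4 probe fell by 3.93 in WT and 2.18 in KO, and Npas4 and the region thus went the same way in both genotypes.

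Regions beside or around 3 further genes fell in several probes. All 3 probes of chr10:62267317-62269871_R, 6787 bases from Tet1, the gene of an enzyme that oxidises 5-methylcytosine in DNA, were called lower in WT and 2 of 3 in KO. The leading one read -5.49, -5.75 and -6.11 in WT at 0 h, -8.26, -8.79 and -9.81 in WT at 3 h, -5.56, -5.57 and -6.31 in KO at 0 h and -9.14, -7.90 and -8.45 in KO at 3 h. No 3 h array had it well above background, and the fall was at least 3.33-fold in WT (limma adjusted p = 0.000798) and at least 1.67-fold in KO (adjusted p = 0.00364). Tet1 fell by 2.88 in WT and 2.62 in KO. All 6 reverse probes in chr3:21964899-21974524, in a gene-poor stretch 134871 bases from Tbl1xr1 for the leading one, were called lower in both genotypes, by changes of -3.41 to -2.52 in WT and -2.65 to -1.77 in KO.

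Between Clec2d and Cd69, an early activation marker of lymphocytes, lies chr6:129151512-129208737_R, which holds a probe of the noncoding gene 2310001H17Rik. Of its 9 fitted probes 8 were called lower in WT and 0 in KO, where fitted changes ran from -0.92 to -0.16. The leading probe read -4.36, -5.12 and -4.79 in WT at 0 h, -7.86, -9.25 and -9.48 in WT at 3 h, -7.13, -6.02 and -8.31 in KO at 0 h and -7.47, -8.56 and -8.14 in KO at 3 h. KO arrays were already low at 0 h, 2.40 below WT (limma adjusted p = 0.08, not past the threshold). No 3 h array had the probe well above background, so the WT fall is at least 6.80-fold (adjusted p = 0.00104) and the difference between the activation effects, which did not pass (adjusted p = 1), has no measured size. The forward strand of the same interval had 4 of 8 probes called lower in WT.

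In chr10:95772764-95825001_F, all 3 probes fell in both genotypes, by changes of -3.95 to -2.04 in WT and -3.22 to -1.42 in KO. The leading probe read -4.18, -4.49 and -4.65 in WT at 0 h and -8.00, -8.63 and -8.53 at 3 h, at least 8.47-fold (limma adjusted p = 0.000482), and in KO at least 2.09-fold (adjusted p = 0.00255). All 3 probes of chr11:51854060-51903278_F, 37959 bases from Ppp2ca, the catalytic subunit of a phosphatase, fell in both genotypes, while Ppp2ca itself rose by 1.30 in WT and 1.03 in KO. Region and nearest gene went opposite ways there.

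The remaining falls in the rule were single probes or rested on few arrays. The probe of chr7:108253956-108254385_F fell at least 6.68-fold in WT (limma adjusted p = 0.000419) and at least 2.32-fold in KO. That of chr9:78107225-78118850_R read -1.33, -1.76 and -1.51 in WT at 0 h and -5.49, -5.66 and -5.43 at 3 h, and in KO the 21-week arrays read -7.05 at 0 h and -7.02 at 3 h against -2.05 and -1.67, then -3.97 and -4.81, on the other arrays. All 3 probes of chr18:36072785-36076426_F fell in WT, and the leading one read -5.14 and -3.73 on the 21-week KO arrays against -9.07 to -7.37 on the other KO arrays. The WT calls of these 2 regions were lost in 10 of 22 and 11 of 21 alternatives. In chr8:82836971-82849309_R the probe fell in both genotypes, at least 1.24-fold in WT and at least 1.88-fold in KO.

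Among the probes above background on all 12 arrays, 3 further loci that fell were picked out after their values were seen. All 8 reverse probes in chr11:53592946-53672731, near the noncoding gene Gm12216, were called lower in WT, with changes from -3.35 to -1.94, and 5 of 8 in KO. One of them read -1.35, -1.92 and -1.59 in WT at 0 h and -4.75, -4.65 and -4.56 at 3 h, and in KO -2.02, -2.06 and -3.49 at 0 h and -4.60, -4.97 and -3.14 at 3 h. The 21-week arrays lay between the 2 times. All 5 forward probes in chr11:117835849-117842574, 8520 bases from Socs3 on the other strand, were lower in WT, and 7 of 8 forward probes in chr5:137392195-137426421 were lower in WT and 6 of 8 in KO.

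The interval chr2:84344350-84370075_R, near the predicted gene Gm13710, had the largest falls in KO. Of its 5 probes 4 were called lower in each genotype, and all 5 were higher in KO than in WT at 0 h, by 1.28 to 2.38. One probe read -6.26, -5.61 and -5.89 in WT at 0 h, -9.60, -9.21 and -9.47 in WT at 3 h, -3.57, -3.29 and -3.78 in KO at 0 h and -8.81, -8.56 and -8.08 in KO at 3 h. The groups were far apart at 0 h and all arrays were dim at 3 h. The fall was at least 3.03-fold in WT (limma adjusted p = 5.94e-05) and at least 8.04-fold in KO (adjusted p = 3.51e-05), and the excess in KO at 0 h was 2.38 ± 0.24 (adjusted p = 0.00386), or 2.50 without the 21-week array. The nearest Gm13710 probe, on the same strand 22929 bases away, fell by 1.78 in WT and 2.39 in KO.

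How far a region followed its nearest gene depended on distance and strand. The median distance from a region probe to the nearest tested probe of a named gene was 17278 bases, 38.2% lay within 10 kb and 72.5% within 50 kb. On the gene's own strand the WT activation differences of probe and gene had a Pearson r of 0.85 within 1 kb (325 probes), 0.73 at 1 to 5 kb (495), 0.53 at 5 to 10 kb (376), 0.32 at 10 to 50 kb (893) and 0.22 beyond (690). In KO the values were 0.82, 0.65, 0.39, 0.28 and 0.15. These r are descriptions across probes, which share genes, regions and the 12 libraries. On the opposite strand r was 0.52 within 1 kb (122 probes) and 0.57 at 1 to 5 kb (255) in WT, and 0.06, 0.00 and 0.09 at the longer distances.

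Of 310 region probes called in WT on the same strand within 10 kb, 201 had a called neighbour, 196 of them in the same direction. In KO, 99 of 164 had one, 98 in the same direction. On the opposite strand within 10 kb it was 45 of 101 in WT, 37 in the same direction, and 14 of 46 in KO, 13 in the same direction. Beyond 50 kb in WT it was 51 of 137 on the same strand (45 in the same direction) and 31 of 111 on the opposite strand (13). In KO it was 17 of 79 (9) and 11 of 59 (6) there. Over all tested probes 29.3% were called in WT and 16.3% in KO. Examples within 1 kb, chosen after their values were seen, were 8 probes beside Gm4532, higher by 1.23 to 1.82 where the gene rose by 1.40, and 6 beside Zfp652, a zinc finger gene, lower by changes of -1.34 to -1.17 where the gene changed by -1.40.

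**Figure D4:**
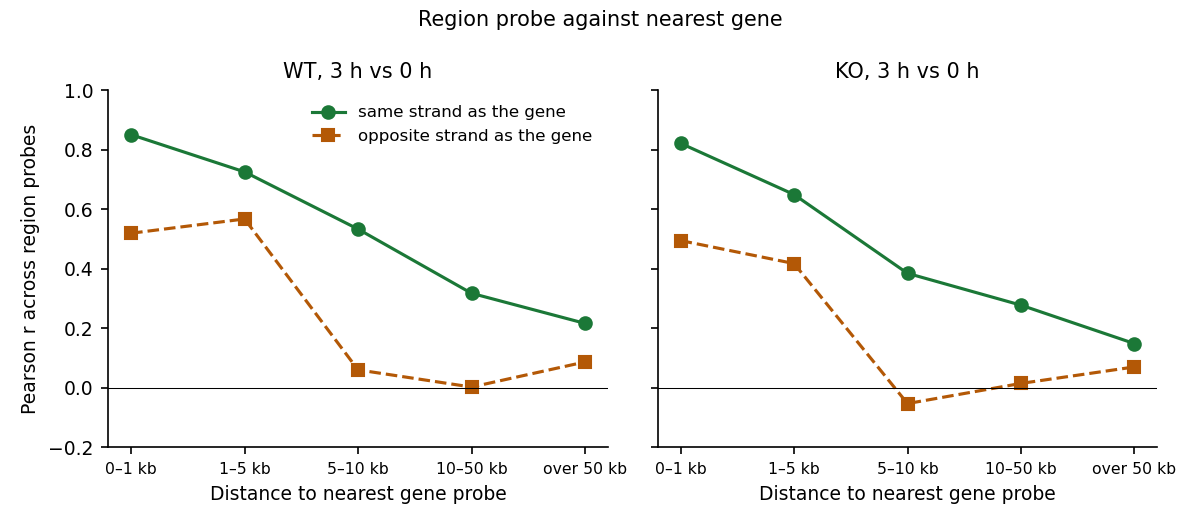
Pearson r between the activation difference of a region probe and that of its nearest named gene (y axis) in 5 distance classes (x axis), for WT (left) and KO (right), on the same strand (green circles) or the opposite strand (orange squares); 122 to 893 probes a class. On the same strand r goes down from 0.85 to 0.22 in WT and from 0.82 to 0.15 in KO, and on the opposite strand it is near 0 from 5 kb on.

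Many regions could be read on both strands. Of 1042 autosomal intervals with probes for both, 354 had members on both strands, 172 on the forward strand only, 225 on the reverse strand only and 291 on neither. Over the 354, forward and reverse medians of the activation difference had a Pearson r of 0.42 in WT and 0.31 in KO. In WT 35 intervals were called in the same direction on both strands, 5 in opposite directions and 111 on 1 strand only, and in KO the counts were 13, 2 and 89. Of chr17:29374758-29387733, 1 forward probe rose from -0.14, -0.54 and -0.26 to 1.24, 1.05 and 0.97 in WT (1.40 ± 0.17, limma adjusted p = 0.000551), and from -1.07, -0.91 and -1.05 to 0.45, 0.89 and 0.62 in KO. The reverse probe of that interval changed by -0.17 in WT. In chr1:84947500-85045150 the leading forward probe fell at least 2.47-fold in WT (adjusted p = 0.000329) while the 3 reverse probes changed by -1.07 to 0.57 (median -0.87), with 1 of them called lower. In chr14:22267795-22319045, 4 of 6 forward and 3 of 5 reverse probes rose in WT.

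**Figure D5:**
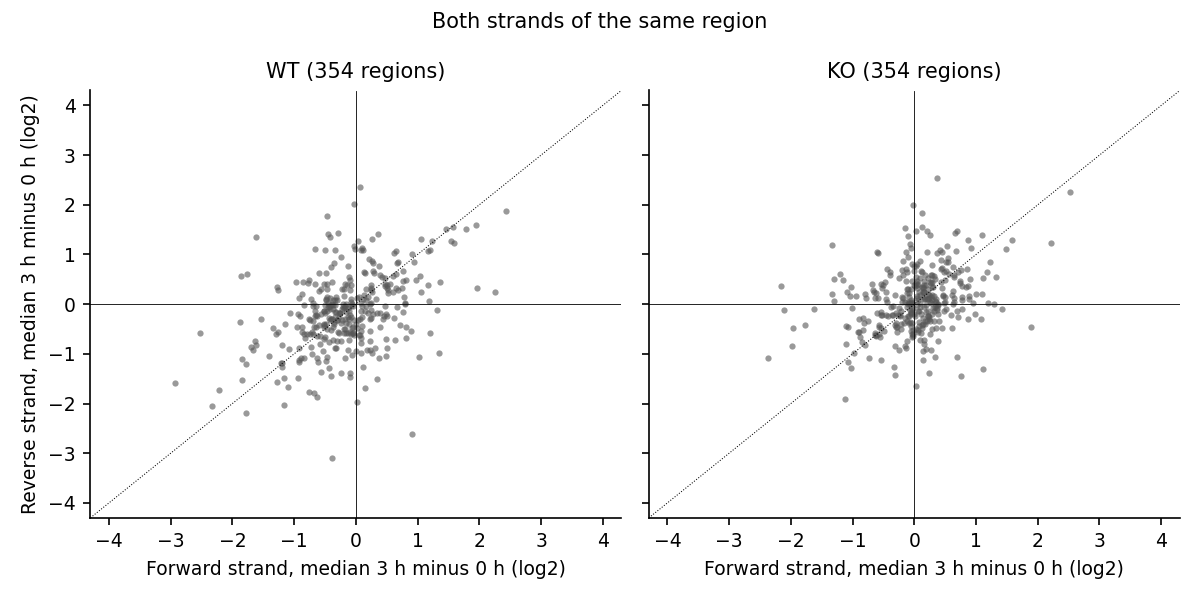
Median activation difference (3 h minus 0 h, log2) of the forward-strand probes (x axis) against the reverse-strand probes (y axis) of the same interval, 1 point for each of 354 intervals with members on both strands, in WT (left) and KO (right); the dotted line marks equality. The points scatter widely about the line, with a Pearson r of 0.42 in WT and 0.31 in KO.

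Region probes near known noncoding RNA genes changed with some of those genes and not with others. Of 44 listed genes 28 were tested by a probe of their own, and in WT 7 were higher and 1 lower at 3 h, in KO 6 higher and 0 lower. Of the 28 listed T cell receptor immediate early genes tested, 20 were higher in WT and 15 in KO, with a median difference of 2.74 and 2.29. In all 179 region probes lay within 10 kb of 22 genes of these and the marker lists, and 19 of them were higher (10.6%, against 13.7% of all tested probes) and 13 lower (7.26%, against 15.6%) in WT. In KO 16 were higher (8.94%, against 7.43%) and 8 lower (4.47%, against 8.87%). The lists were chosen with earlier results of these data known.

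Beside Mir17hg, the precursor of the miR-17-92 cluster, 3 of 11 same-strand probes rose in both genotypes. The one that overlaps the gene probe read -2.94, -2.51 and -2.79 in WT at 0 h and -0.80, -0.83 and -0.80 at 3 h, a rise of 1.93 ± 0.26 (limma adjusted p = 0.000788), where Mir17hg rose by 1.82. Beside Snhg15, all 6 opposite-strand probes rose in WT, by 1.39 to 2.46, and 4 in KO, while of its 5 same-strand probes 2 rose in WT and 0 in KO, where they changed by -0.81 to 1.97. All 3 same-strand probes 7648 to 7962 bases from Neat1, the scaffold RNA of paraspeckles, rose in WT by 1.13 to 1.31, where Neat1 rose by 1.53 in WT and 1.71 in KO. Both probes of the region 4730 to 4809 bases from Egr3, an early response factor gene, rose in both genotypes, by 0.74 and 1.45 in WT. Of the 4 same-strand probes 5233 to 5723 bases from Junb, another listed early gene, 0 were called in either genotype. They changed by -0.18 to 0.32 in WT, where Junb changed by 1.82 (limma adjusted p = 0.0612).

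Pvt1, the noncoding neighbour of Myc, went the other way. Of 10 same-strand region probes 8 were lower in WT and 6 in KO, with median changes of -1.40 and -1.22. The probe next to a Pvt1 probe read -3.27, -3.73 and -3.55 in WT at 0 h, -5.80, -5.43 and -5.12 in WT at 3 h, -3.50, -3.66 and -4.46 in KO at 0 h and -5.66, -5.64 and -5.37 in KO at 3 h. That neighbouring Pvt1 probe changed by -1.68 in WT, and the probe taken for the gene in the list by -0.45 (limma adjusted p = 0.178), so the probes of Pvt1 disagreed. Morrbid, a noncoding regulator of Bcl2l11 in myeloid and T cells, was lower in WT by 2.22 on the log2 scale, and 2 of its 5 same-strand region probes were called lower there, with 0 in KO. Around Gas5, a growth arrest noncoding RNA that rose by 0.94 in WT, 0 of 4 same-strand region probes and 1 of 2 opposite-strand probes, which fell by 0.91, were called. Of the 10 region probes near Malat1, 24 near Tug1, 13 near Snhg17 and 3 near Norad, 0 were called in either genotype.

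Between genotypes few regions differed. At 0 h 43 of 4528 region probes passed (0.95%, against 1.82% of all tested probes), 34 higher in KO (0.751%, against 1.63%) and 9 lower (0.199%, against 0.187%). At 3 h it was 29 (0.64%, against 1.26%), 24 higher (0.53%, against 1.10%) and 5 lower (0.11%, against 0.164%). The median difference was -0.06 at 0 h and 0.14 at 3 h, against -0.03 and 0.02 over all tested probes. Of the probes above background on all arrays 12 passed at 0 h (0.482%, against 1.27% of all such probes), 11 higher (0.442%, against 1.11%) and 1 lower (0.0402%, against 0.157%). At 3 h 9 of them passed (0.361%, against 0.939%), 8 higher (0.321%, against 0.833%) and 1 lower (0.0402%, against 0.106%). Over all fitted region probes 10 probes were higher and 4 lower in KO at both times.

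The direction of these calls moved with the scaling. At 0 h the higher share was 79.1%, 91.7% under normexp, 81.2% with no shift between arrays, 50% when each array was shifted by the 75th percentile over all probes (16 of 32) and 43.2% under quantile normalization and in the deposited table (16 of 37). At 3 h it was 82.8%, against 72.4%, 53.6% and 53.6%, with 68.8% for no shift between arrays and 95.2% under normexp. Quantile normalization shifted the median difference of all tested probes from -0.03 to -0.15 at 0 h and from 0.02 to -0.16 at 3 h. Of 12 monocyte and macrophage markers, all of them tested, 10 were called higher in KO at 0 h and 10 at 3 h. Their summed level, in units of the 75th percentile, was 5.10 to 9.34 in WT and 26.2 to 39.8 in KO at 0 h, and 1.04 to 1.45 in WT and 4.91 to 9.77 in KO at 3 h. Their part in the region differences was not tested. In bulk RNA, fewer cells of a type and less RNA per cell cannot be told apart.

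Overlapping reverse regions over Ifi207, an interferon-inducible gene of the PYHIN family, were higher in KO in several probes. Of 11 probes in chr1:175653557-175672031, 8 of them above background on all 12 arrays, 3 were called higher in KO at 0 h and 7 at 3 h. The probe of chr1:175654606-175672031_R with a measured level on all arrays read -4.50, -3.23 and -3.81 in WT at 0 h and -5.15, -3.74 and -4.37 in WT at 3 h, against -1.27, -2.02 and -2.09 in KO at 0 h and -1.51, -1.26 and -0.43 in KO at 3 h. Every KO array lay above every WT array. After activation KO exceeded WT by 3.35 ± 0.45 (limma adjusted p = 0.00549), before it by 2.05 ± 0.45 (adjusted p = 0.0526, not past the threshold), and 3.03 at 3 h without the 21-week array. The Ifi207 probe nearest to that one differed by 3.27 at 3 h (adjusted p = 0.0049), so region and gene gave the same size. The printed probe, of chr1:175660642-175671878_R, was at least 10.0-fold higher in KO at 3 h (adjusted p = 0.00111), where the Ifi207 probe nearest to it differed by 3.05 (adjusted p = 0.0765, not past the threshold). Genes of this family lie in a row and are alike in sequence, so signal from paralogs may be shared.

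The region beside Dgki, a diacylglycerol kinase gene, was higher in KO at both times. Of 6 probes of its 2 overlapping reverse regions, chr6:36765550-36793825 and chr6:36790208-36792056, 4 were called at 0 h and 5 at 3 h. The leading one, 6558 bases from Dgki, read -7.28, -6.70 and -6.43 in WT at 0 h, -9.78, -8.99 and -9.67 in WT at 3 h, -5.20, -4.90 and -5.21 in KO at 0 h and -6.00, -6.00 and -5.82 in KO at 3 h. It was 1.70 ± 0.26 higher at 0 h (limma adjusted p = 0.0129) and at least 2.99-fold higher at 3 h (adjusted p = 0.00111). Its 3 h call was lost in 1 of 21 alternatives, the fit on 2 groups. Another probe, of chr6:36765550-36793825_R, was among the largest called rises at 0 h. That 0 h call was lost in 16 of 21 alternatives, among them quantile normalization, normexp, the deposited table and the fit without 21-week arrays. Dgki was 1.82 higher in KO at 0 h (adjusted p = 0.034) and 2.30 at 3 h (adjusted p = 0.013).

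Near Sirpa, which encodes the myeloid receptor of CD47, the probe of chr2:129416848-129417413_R, 40828 bases away on the other strand, read -9.44, -7.45 and -8.76 in WT at 0 h and -5.58, -6.00 and -5.25 in KO at 0 h, then -9.85, -9.56 and -9.73 in WT and -6.87, -7.09 and -5.14 in KO at 3 h. No WT array had it well above background, and at 3 h it was above on 1 of 3 KO arrays. The excess in KO was at least 3.29-fold at 0 h (limma adjusted p = 0.0308), in the group through which alone the probe entered. At 3 h it was also called (adjusted p = 0.0187), but with 1 of 3 KO arrays well above background the excess has no measured size. The lowest signal above background at 3 h was -6.84 to -6.12 on KO arrays and -7.66 to -7.40 on WT arrays. The other 2 probes of the region were not called at either time. The calls were lost in 11 and 5 of 21 alternatives. Sirpa itself was 2.23 higher in KO at 0 h and 2.84 at 3 h. The region on chromosome 1 that rose in both genotypes, chr1:33965074-34060850_F, was higher in KO by at least 2.68-fold at 0 h (adjusted p = 0.045, lost in 15 of 21 alternatives, among them leaving out any KO 0 h array) and by 2.84 ± 0.41 on the log2 scale at 3 h (adjusted p = 0.00811).

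Other regions higher in KO at 0 h were dim in WT. The probe of chr15:36800254-36809571_R was at least 5.41-fold higher (limma adjusted p = 0.0226), and that of chr8:10886200-10905925_F, beside the noncoding gene 4833411C07Rik, at least 2.22-fold (adjusted p = 0.00896). The probe of chr18:61799195-61807139_F, between Csnk1a1 and Il17b where RefSeq places Carmn with Mir143 and Mir145a, noncoding genes of smooth muscle, read -9.04, -8.82 and -8.64 in WT and -6.21, -6.55 and -5.96 in KO, at least 2.12-fold (adjusted p = 0.0467). Those of chr3:51804655-51805883_R and chr13:112717680-112733330_F were at least 2.27-fold and 2.28-fold higher, with adjusted p = 0.0499 and 0.0414. Under the alternatives these 5 calls were lost in 6 of 21, 1 of 21, 14 of 22, 15 of 21 and 16 of 22, in the order given. At 3 h none of these 5 probes was called, and the largest of their differences was 1.45.

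Lower in KO at both times was a bright probe of chr6:67155508-67216941_F, 55418 bases from Serbp1, the gene of an RNA-binding protein. It read -0.97, -0.99 and -1.19 in WT at 0 h, -1.38, -1.54 and -1.55 in WT at 3 h, -4.51, -3.65 and -4.14 in KO at 0 h and -3.09, -3.78 and -3.92 in KO at 3 h. Every KO array lay below every WT array, and the probe was above background on all 12. KO minus WT gave -3.05 ± 0.26 without activation (limma adjusted p = 0.00143) and -2.11 ± 0.26 after it (adjusted p = 0.00445), and -3.02 and -1.95 without the 21-week arrays. It was the only one of the 9 forward probes of the interval to be a member. Serbp1 differed by 0.03 at 0 h.

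The region of 1 fitted probe with the largest deficit at 0 h, chr19:60220577-60238494_F, holds a probe of the noncoding gene E330013P04Rik. It read -6.31, -4.95 and -5.07 in WT at 0 h, -9.64, -9.33 and -9.53 in WT at 3 h, -9.43, -9.36 and -8.74 in KO at 0 h and -8.80, -8.60 and -8.13 in KO at 3 h. Only WT at 0 h was above background, at least 4.22-fold over WT at 3 h and at least 3.41-fold over KO at 0 h. The probe entered through that group alone, so these differences are a description. Its difference between activation effects has no measured size and did not pass (limma adjusted p = 0.0663).

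In chr10:83181374-83249774_F, which holds a probe of 1500009L16Rik, 1 of 4 probes was lower in KO at both times, by -1.45 ± 0.30 at 0 h and -1.50 ± 0.30 at 3 h (limma adjusted p = 0.0415 and 0.0441). These calls were lost in 11 and 13 of 21 alternatives, and with normexp the 3 h difference was -0.16. Near Catsperd, which encodes a subunit of the sperm calcium channel, 2 probes of chr17:56790296-56803875_F, 970 and 1634 bases from it, were called lower at both times. The first differed by -1.38 at 0 h, a call lost in 5 of 21 alternatives, and by -1.60 at 3 h. With normexp background correction the 3 h differences of the 2 probes were 0.033 and 0.064. Antisense to Gas5, a probe of chr1:162965309-162970704_R was lower in KO at 0 h by -1.44 ± 0.26 (limma adjusted p = 0.0242). That call was lost in 6 of 22 alternatives, among them normexp and leaving out any WT 0 h array. Probes of chr2:52241435-52245307_F, chr18:36072785-36076426_F (not the leading one above) and chr10:24269317-24270145_R were lower at 0 h, at least 1.86-fold, 2.30-fold and 1.67-fold, and none was above background in KO; the calls were lost in 5 of 22, 14 of 21 and 11 of 22 alternatives. At 3 h a probe of chr17:27479404-27481770_F, 384 bases from Gm10505, was at least 2.58-fold lower (adjusted p = 0.0271, lost in 10 of 21 alternatives).

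For the difference between activation effects, the largest positive moderated statistics after the E330013P04Rik region were a probe of chr18:36072785-36076426_F, with 3.25 ± 0.61, and the Ifi207 probe of chr1:175660642-175671878_R, with 1.81 ± 0.36. The largest negative ones were -1.44 ± 0.35 for the Gm13710 region, -2.12 ± 0.53 for chr7:80766878-80767496_R and -1.18 ± 0.32 for chr17:25989799-25992334_R, near Mcrip2. Most of these fitted values rest in part on levels not well above background. None passed the threshold, with limma adjusted p from 0.504 up. All 3 probes of the last region rose in WT, by 1.60 to 2.02, and 0 of 3 passed in KO, where they changed by 0.70 to 0.90.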

How the data were processed

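Per the file headers, the deposited scanner files hold spot intensity on a linear scale, 1 file an array, from Agilent Feature Extraction 10.7.3.1 (version 11 per the submitters' processing notes), background-subtracted within each array and not normalized between arrays. The authors also deposited a table of log2 values, whose scale and centring are not stated; it was used as an alternative. Coordinates are those of the array design (mm9). Control spots and outlier spots were left out, spots of a probe were averaged on the log2 scale, and the 75th percentile of the 19798 probes above background on all 12 arrays was subtracted from each array. Another 515 probes lacked a value on some array and were not tested, and no probe was saturated. The number of arrays limits the precision. The 4 group means were fitted with limma 3.58.1 in R 4.3.3, probe by probe, with 8 residual degrees of freedom, two-sided, with Benjamini-Hochberg adjustment over 26259 probes and a threshold of 0.05. The fit was tested on simulated data. Values after ± are standard errors from this fit, with 3 arrays a group.

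Named regions are the up to 8 largest rises and falls among called probes without overlap between arrays in each pairwise comparison, up to 3 each way by moderated statistic for the difference of activation effects, up to 6 intervals by moderated F on both strands, the nearest gene of each within 50 kb (genes farther off, such as Tbl1xr1 and Serbp1, only place a region), and probes within 10 kb of a listed gene. The lists were noncoding RNA genes, T cell receptor immediate early genes, and markers of T cells, Treg, macrophages, plasma cells, B cells, erythroid cells, neutrophils and NK cells. Of plasma cell, B cell, erythroid and neutrophil markers 0 passed limma's threshold in any of the 4 comparisons. Their median KO minus WT differences were still 4.04, 1.71, 2.92 and 3.16 at 0 h, in that order, and 2.79, 1.17, 1.63 and 1.57 at 3 h. Of 3 NK markers 1 was higher in KO at each time, and 2 were called lower on activation in WT (median -2.07) and 2 in KO (median -2.00). The members and lists were chosen with earlier results of these data known. RefSeq (GRCm38) supplied names, gene order and microRNA sequences, never coordinates. Alternatives were other shifts, quantile normalization, normexp, the deposited table, the background filter, 1 probe a region or gene, a fit on 2 groups, leaving out arrays, and age as a term (added after seeing the data).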

Additional observations from a re-analysis of the deposited data

How the results depend on the processing

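Counts below are region probes called by limma in, in order, WT activation, KO activation, KO against WT at 0 h and at 3 h; the reported counts are 992, 517, 43 and 29, with 0 for the difference of activation effects. With no shift between arrays 500 were called in WT activation and 16 between genotypes at 3 h, against 14.6% and 0.526% of all tested probes. Normexp left 12 between genotypes at 0 h, against 1.34%. Without a filter on dim probes 15435 region probes were fitted. Of these 314 were called in KO activation and 3531 between genotypes at 3 h, 3503 of them higher in KO. Over all 55166 probes in that fit the called shares were 4.29% and 19%. At 3 h the lowest signal above background was -6.84 to -6.12 on KO arrays and -7.66 to -7.40 on WT arrays. Probes above background on all 12 arrays, refitted alone, gave 571, 333, 11 and 10 of 2490. Of all such probes 32.7%, 18.7%, 1.28% and 0.939% were called. With 1 probe a region or gene the counts were 422, 233, 21 and 9 of 2091. Of all probes in that fit 29.9%, 17.2%, 2.08% and 1.45% were called. Without the 21-week arrays the region counts were 1951, 1438 and 92, and 31 at 3 h. Of all tested probes 54.6%, 44.3%, 5.09% and 1.59% were called there. The age of 21 weeks as a term was an alternative chosen after seeing the data and ties the 2 arrays of that age. It gave 1730, 1180, 64 and 32, against 49.1%, 37.3%, 3.37% and 1.6% of all tested probes. For the difference of effects it gave 1, against 0.00381%. A fit on the 2 groups alone gave 2183, 15, 30 and 0, against 59.5%, 0.56%, 1.69% and 0% of all tested probes. For the difference of activation effects, the 75th percentile over all probes, quantile normalization and the deposited table each gave 1 called region probe. Under these settings 0.00762%, 0.0152% and 0.0152% of all tested probes were called.

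Leaving out 1 array at a time gave 631 to 1358 in WT activation and 272 to 1142 in KO activation. Of all tested probes 19% to 40.2% and 8.87% to 35.8% were called. Between genotypes it gave 8 to 99 at 0 h and 14 to 72 at 3 h, against 0.396% to 4.9% and 0.613% to 2.72%. For the difference of effects it gave 0 to 1, against 0% to 0.00381%. The calls over the whole array thus moved too. The WT activation count fell by over 1.5 times without any 1 of the 6 WT arrays (631 to 659). The KO activation count was 272 without KO 0 h replicate 2, 301 without KO 3 h replicate 1, 286 without KO 3 h replicate 2 and 1142 without KO 3 h replicate 3, a 21-week array. At 0 h it was 8 and 10 without WT 0 h replicates 1 and 3, 17, 23 and 20 without the KO 0 h replicates 1, 2 and 3, 24 and 99 without KO 3 h replicates 2 and 3, and 27 and 28 without WT 3 h replicates 2 and 3. At 3 h it was 72 without KO 3 h replicate 1 and 14 without either WT 3 h replicate 1 or 3. The cause of these changes was not tested.

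Of 63 named calls, 58 stayed past the threshold under the 75th percentile over all probes, 56 under quantile normalization and in the deposited table, 54 with no shift, 40 under normexp, 51 with no filter, 56 without the 21-week arrays, 62 with the age term, 32 in the fit on 2 groups and 46 to 60 when 1 array was left out; 6 of 6 and 17 of 17 stayed among those testable above background everywhere and with 1 probe a gene. The 2 that turned, both of the region beside Catsperd at 3 h under normexp, had differences of 0.033 (A_30_P01027601) and 0.064 (A_30_P01022087). A slide block could not be fitted, since the group means already fix the slides (rank 4 with and without it), and was not run. No paired analysis was possible because the labels number no replicates across groups and tie only the 2 arrays of 21-week mice, by age.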

Other observations

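Regions on the X chromosome lay outside the autosomal rule. Of 577 such probes 144 were tested by the same background rule, in 72 region strands. On activation 4 were called higher and 15 lower in WT (13.2%, against 29.3% of all tested probes) and 1 higher and 7 lower in KO (5.56%, against 16.3%), by limma with adjustment over all tested probes. The largest fall in WT was a probe of chrX:6982891-7008528_R, with a change of -2.85 ± 0.53 in WT (adjusted p = 0.0038) and -2.42 ± 0.53 in KO (adjusted p = 0.0141). A probe of chrX:50400250-50410825_R rose by 2.65 ± 0.35 in WT (adjusted p = 0.000693) and 1.40 ± 0.35 in KO (adjusted p = 0.0235). These 2 regions were picked out after their values were seen. Between genotypes 2 X probes were called at 0 h, all lower in KO (1.39%, against 1.82% of all tested probes called and 0.187% called lower). At 3 h 0 were called, against 1.26%.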
